A study of Mus musculus with 3 samples.

Results

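In DNA of F1 mice, most genes gave nearly as many reads from the CAST/EiJ (CAST) chromosome as from the C57BL/6 (B6) chromosome, but a small set of coding genes did not. This set was chosen on the measured values. It holds the protein-coding genes of chromosomes 1 to 19 with at least 50 allelic counts and an allelic imbalance (AI, the B6 counts divided by the sum of B6 and CAST counts) over 0.75 in each of the 3 libraries. Of 18908 coding genes listed on these chromosomes, 16190 had at least 50 counts in all libraries, and 67 of them (0.414%) lay over 0.75 in all of them. Type 2 vomeronasal receptor genes (Vmn2r), *Ptprc* and 6 regions of clustered genes, on chromosomes 1, 2, 4, 6, 14 and 17, were set aside, which took out 11 of the 67 (among them *Vmn2r7*, *Zfp981*, *Ear1* and *Klra8*) and left 56 genes on 17 chromosomes. Because AI chose these genes, their AI is given below as a description, without a test.

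Exomes were captured from female animals that had received hematopoietic stem cells (HSCs) of F1 mice with a B6 mother and a CAST father, with 1 library per animal and thus no replicate error. The polyclonal animal E6.2 had received 50 HSCs of donor animal 6, and its library was made from 58000 B220+IgM+ B cells, placed in the spleen by the sample labels and in the bone marrow by the study's methods. Monoclonal animals E6.43 and E15.10 had each received 1 HSC, of donor animals 6 and 15, and their libraries were made from 250000 and 177000 CD4+CD8- thymus T cells. The B6 parent is given as C57BL/6 in the labels and as C57BL/6J in the methods, and the recipients were irradiated F1 mice that differed from the donors at Ly5, and a single HSC makes each T cell sample 1 clone. Total allelic counts were 19471576 in E6.2, with 13036005 in E6.43 and 10863972 in E15.10. Tested coding genes had a median AI of 0.539, 0.539 and 0.537. Where values of the 3 libraries stand without their names, E6.2 comes before E6.43 and E15.10 last.

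By way of background, a read counts for B6 or CAST only where it covers a single-nucleotide polymorphism (SNP) between the strains and can be placed in the genome. Many mouse genes lie in families that arose by duplication, such as odorant receptors, vomeronasal receptors, interferons and major urinary proteins, and the number of copies of such families is known to differ between mouse strains. Highly expressed housekeeping genes, ribosomal proteins above all, have left processed pseudogenes, which are copies of the spliced transcript inserted elsewhere in the genome. In both cases short stretches of a gene can also be present, with the same letters, at another place.

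The sequences around the SNPs showed such sharing, and a few pairs are printed because they show its forms. For each pair the stretch around the counted SNP of the B6-skewed gene stands first, with the listed SNP positions in capitals, and the stretch at the other place in the B6 reference genome stands under it, with bases that differ from the line above in capitals. All are from GRCm38 and are given 5′ to 3′ on the strand of the genome's forward direction for the gene. In *Tgtp2*, an interferon-induced GTPase gene of the immunity-related family (ENSMUSG00000078921), the coding stretch chr11:49058579-49058729 was identical to chr11:48986712-48986862 in the coding sequence of the neighbouring *Tgtp1*, with 5 listed SNPs inside it.
Tgtp2: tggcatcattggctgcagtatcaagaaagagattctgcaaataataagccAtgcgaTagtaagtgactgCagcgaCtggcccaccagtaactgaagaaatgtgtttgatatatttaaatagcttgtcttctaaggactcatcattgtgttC
Tgtp1: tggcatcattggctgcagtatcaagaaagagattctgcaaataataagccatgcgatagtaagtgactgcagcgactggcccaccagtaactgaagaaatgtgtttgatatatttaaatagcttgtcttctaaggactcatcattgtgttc

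In *Unc93a2* (ENSMUSG00000056133), the stretch chr17:7370297-7370447 differed at 1 base, a listed SNP, from chr17:13116120-13116270 in *Unc93a*, a gene of the same family of membrane proteins.
Unc93a2: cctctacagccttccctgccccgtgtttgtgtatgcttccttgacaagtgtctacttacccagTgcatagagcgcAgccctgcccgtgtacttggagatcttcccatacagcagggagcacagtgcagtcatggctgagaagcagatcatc
Unc93a: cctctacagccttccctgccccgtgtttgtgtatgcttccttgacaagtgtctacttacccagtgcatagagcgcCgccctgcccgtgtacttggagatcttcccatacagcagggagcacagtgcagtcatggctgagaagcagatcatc

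In *Cd300ld2* (ENSMUSG00000089753), a gene of the CD300 family of leukocyte surface receptors, the stretch chr11:115013654-115013804 differed from chr11:115035116-115035266 in *Cd300ld5* at 5 bases, 2 of which are listed SNPs.
Cd300ld2: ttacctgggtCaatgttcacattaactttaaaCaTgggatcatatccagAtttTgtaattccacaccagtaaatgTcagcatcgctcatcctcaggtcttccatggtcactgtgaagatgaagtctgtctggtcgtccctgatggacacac
Cd300ld5: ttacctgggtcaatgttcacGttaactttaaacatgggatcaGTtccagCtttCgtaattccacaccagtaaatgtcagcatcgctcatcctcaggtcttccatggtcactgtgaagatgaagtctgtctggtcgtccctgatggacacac

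In the odorant receptor gene *Olfr585* (ENSMUSG00000078080), the stretch chr7:103097887-103098037 was identical to chr7:103051444-103051594 in *Olfr583*.
Olfr585: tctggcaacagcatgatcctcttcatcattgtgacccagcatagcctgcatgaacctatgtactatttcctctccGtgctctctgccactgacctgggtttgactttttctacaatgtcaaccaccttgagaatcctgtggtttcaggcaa
Olfr583: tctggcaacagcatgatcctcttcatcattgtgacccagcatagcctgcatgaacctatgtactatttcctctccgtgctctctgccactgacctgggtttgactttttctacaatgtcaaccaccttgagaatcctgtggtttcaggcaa

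Other stretches were shared with processed pseudogenes. In *Rps12* (ENSMUSG00000061983), which encodes a protein of the small ribosomal subunit, the coding stretch chr10:23786763-23786881 was identical over 119 bp to chr8:36025766-36025884 on the reverse strand, in the processed pseudogene *Rps12-ps24*.
Rps12: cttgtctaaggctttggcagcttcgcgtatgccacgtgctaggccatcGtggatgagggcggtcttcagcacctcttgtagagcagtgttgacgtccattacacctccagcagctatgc
Rps12-ps24: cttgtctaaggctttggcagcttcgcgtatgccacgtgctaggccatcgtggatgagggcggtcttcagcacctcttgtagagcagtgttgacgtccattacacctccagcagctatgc

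In *Bnip3l* (ENSMUSG00000022051), which encodes a mitochondrial receptor for mitophagy, the stretch chr14:66989135-66989269 was identical over 135 bp to chr12:18217071-18217205 on the reverse strand, in the processed pseudogene *Bnip3l-ps*.
Bnip3l: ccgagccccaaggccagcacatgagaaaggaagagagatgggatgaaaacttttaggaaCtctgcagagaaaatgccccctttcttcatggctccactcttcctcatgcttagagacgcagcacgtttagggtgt
Bnip3l-ps: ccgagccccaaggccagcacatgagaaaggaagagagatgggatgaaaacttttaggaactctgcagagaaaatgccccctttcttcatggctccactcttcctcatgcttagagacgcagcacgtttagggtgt

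The 56 genes did not lack CAST counts altogether. CAST counts made up 5797 of their counts in E6.2 (11.7%), with 3452 in E6.43 (11.2%) and 1765 in E15.10 (11.7%). AI ran from 0.754 to 1 in E6.2, then from 0.773 to 1 in E6.43 and from 0.764 to 1 in E15.10, with medians of 0.888, 0.907 and 0.893. In 20 genes AI was over 0.9 in all libraries. A total of 6, 5 and 7 genes had no CAST count in the 3 libraries, and 3 had none in any library. These were *Unc93a2*, with 189, 117 and 136 B6 counts in the 3 libraries, *Ifnz*, with 154, 160 and 152, and *Gm9817*, with 111, 176 and 101. At these depths a count of 0 allows a CAST share of up to 1.59% in E6.2, with 2.56% in E6.43 and 2.21% in E15.10 for *Unc93a2*, and of up to 2.97% for *Gm9817* in E15.10. Intervals and limits here cover counting error only, and neighbouring SNPs share reads.

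**Figure D1:**
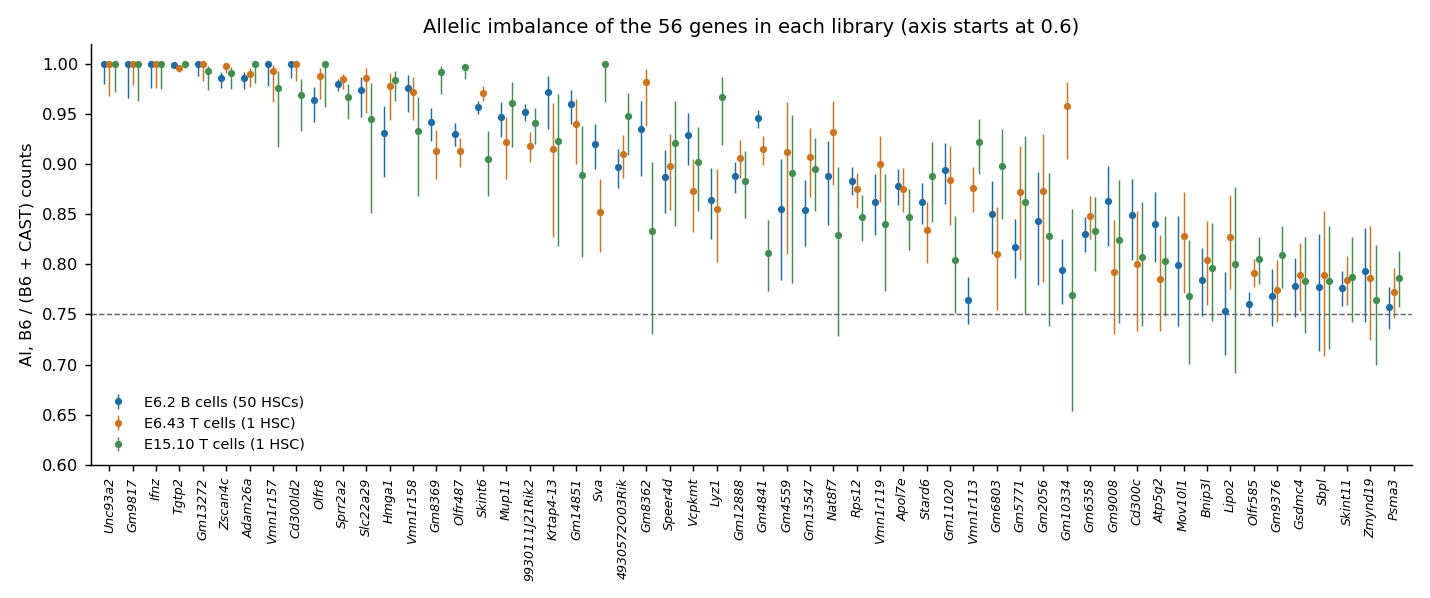
AI of each of the 56 genes (x axis, ordered by mean AI) in the 3 libraries (y axis, B6 counts over all allelic counts, starting at 0.6), with 95% Wilson intervals as bars and the limit of 0.75 dashed. The left end is formed by genes at or near 1 in all libraries, such as *Unc93a2*, *Gm9817*, *Ifnz* and *Tgtp2*, and the right end by genes just over the limit, such as *Psma3* and *Zmynd19*.

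At the lower end, *Lipo2*, a lipase gene of a tandem family, had an AI of 0.754 in E6.2, with 0.827 in E6.43 and 0.80 in E15.10. *Psma3*, an alpha subunit of the proteasome core, had 0.757, 0.773 and 0.787, and *Olfr585* had 0.761, 0.792 and 0.805. The genes just outside were *Prpf4b*, a splicing-associated kinase, at 0.793, 0.780 and 0.75, *Selenok*, a selenoprotein, at 0.746, 0.749 and 0.766, and *Myef2*, a transcriptional repressor of myelin genes, at 0.745, 0.749 and 0.751. Values on either side of the limit thus ran into each other, and no gap in AI set the 56 genes apart.

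The genes with the most counts held receptor and immune genes as well as *Rps12* and *Psma3*. *Olfr585* had 3683 B6 and 1158 CAST counts in E6.2, with 2602 and 684 in E6.43, and 855 and 207 in E15.10. *Skint6*, of the family whose member *Skint1* is required for the selection of epidermal gamma delta T cells, had 4025 B6 and 181 CAST counts in E6.2, with 2040 and 60 in E6.43, and 287 and 30 in E15.10. *Tgtp2* had 2535 B6 and 2 CAST counts in E6.2, with 1626 and 6 in E6.43, and 960 and 0 in E15.10. CAST counts of *Tgtp2* were thus close to absent in all libraries, whereas *Olfr585* kept many. *Rps12* had 1755 B6 and 231 CAST counts in E6.2, with 1190 and 170 in E6.43, and 811 and 146 in E15.10, and *Psma3* had 1208 and 387, 853 and 251, and 635 and 172. The predicted gene *9930111J21Rik2*, which spans 48.3 kb together with *Tgtp2*, had 2102 B6 and 105 CAST counts in E6.2, with 1222 and 109 in E6.43, and 638 and 40 in E15.10.

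*Olfr487* had 1802 B6 and 135 CAST counts in E6.2, with 1342 and 128 in E6.43, and 365 and 1 in E15.10, so its CAST share was near 0 in E15.10 alone. *Gm4841*, a predicted gene on chromosome 18, went the other way, at an AI of 0.946 in E6.2, with 0.915 in E6.43 and 0.811 in E15.10. *Skint11* had nearly the same AI in all libraries (0.777, 0.785 and 0.788), as did *Gm6358* (0.831, 0.848 and 0.834). *Sprr2a2*, which encodes a small proline-rich protein of the cornified envelope of skin, had 1880 B6 and 38 CAST counts in E6.2, with 1085 and 17 in E6.43, and 412 and 14 in E15.10. *Gm12888* had 0.888, 0.907 and 0.884.

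The rule keeps only genes with AI over its limit in every library, which by itself caps how far the libraries can lie apart. The spread of AI over the libraries is therefore given as a description, without a spread over all tested genes to set it against. The median difference between the highest and the lowest library was 0.0449, 30 genes differed by less than 0.05 and 7 by more than 0.1 (*Lyz1*, *Gm8362*, *Gm4841*, *Gm10334*, *Sva*, *Nat8f7* and *Vmn1r113*, named after their values were seen). The largest difference, 0.189, was in *Gm10334*. Between E15.10 and E6.2, which have different donors, 95% Wilson intervals were apart in 13 genes: AI was higher in E15.10 in 7 (*Lyz1*, *Hmga1*, *Gm8369*, *Sva*, *Vmn1r113*, *Olfr585* and *Olfr487*) and lower in 6 (*Rps12*, *Cd300ld2*, *Gm4841*, *Skint6*, *Gm14851* and *Gm11020*). Between E15.10 and E6.43, also of different donors, they were apart in 8, and between E6.43 and E6.2, which share a donor, in 7. Intervals were not compared over all tested genes, so these counts have no background and nothing is read from them. E6.43 and E6.2 also differ in cell type and clonality, so donor, cell type and library cannot be told apart.

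Members of families were described by lists of symbols. Each list is given with the genes set aside with their regions put back, since 0.414% of all tested genes lay over 0.75 on that basis. Predicted genes, named Gm or Rik, were 19 of the 56 and 23 of the 67 (3.19% of the 722 tested), with *Gm4841* and *9930111J21Rik2* the best covered. Type 1 vomeronasal receptors (Vmn1r), which bind pheromones, had 4 members (5.19% of 77 tested) and Skint genes had 2 (25% of 8), and neither lost a gene with the regions. Odorant receptors had 3 members and, with *Olfr1049* put back, 4 genes over 0.75 (0.632% of 633), close to the share over all tested genes. Interferon-induced GTPases, secreted carriers, germ cell families, keratins and zinc finger genes had 1 member each. The other 12 family lists had none, and in 11 of them, such as 185 genes of xenobiotic metabolism, 51 Serpin genes and 60 Trim genes, none was over 0.75 with the regions put back either. In the other list, of 69 natural killer and related immune receptors, *Klra8* was over 0.75 and was set aside with its region. Lists by symbol miss relatives among the predicted genes. The sequence around 3 of 3 SNPs of *Gm14851* matched the defensin gene *Defa29*, and around 2 of 3 SNPs of *Gm4559* the keratin-associated gene *Krtap5-4*. A total of 23 genes were in no list, among them *Rps12*, *Psma3*, *Sprr2a2*, *Apol7e* and *Stard6*. In RefSeq, 50 of the 56 were coding, 3 were pseudogenes and 3 were not matched.

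The 4 vomeronasal receptors differed in their CAST counts. *Vmn1r113* had 956 B6 and 294 CAST counts in E6.2, with 710 and 100 in E6.43, and 342 and 29 in E15.10, whereas *Vmn1r119* had 420 and 67, 288 and 32, and 126 and 24. AI of *Vmn1r113* was lowest in E6.2 (0.765, against 0.877 in E6.43 and 0.922 in E15.10), whereas that of *Vmn1r119* was alike in all libraries (0.862, 0.90 and 0.840). *Vmn1r157* had 172 B6 and 0 CAST counts, 144 and 1, and 82 and 2, and *Vmn1r158* had 291 and 7, 247 and 7, and 98 and 7. CAST counts were thus fewest in *Vmn1r157*.

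The genes left by the rule lay singly or in small groups. The rule had set aside 6 regions of clustered genes, so larger groups were in part taken out beforehand. Grouping was not computed for all tested genes. Another gene of the set started within 1 Mb of 17 of the 56 (30.4%), in 8 groups, of which 7 were pairs and 1 held *Gm5771*, *Gm10334* and *Sva* on chromosome 6. Of the 48 coding genes with AI under 0.25 in all libraries, chosen by the mirror image of the same rule, 23 (47.9%) had another of their own set within 1 Mb. The flanking genes were taken as the nearest tested coding gene outside the set on each side. Genes of the set were passed over, and they were the nearest tested coding gene on 12 of the 112 sides. A gene can flank more than 1 gene of the set, and the sides held 99 different genes. Of these, 82 had AI between 0.25 and 0.75 in all libraries and 4 had AI under 0.25 in all, and the choice itself keeps out those over 0.75 in all, other than the ones set aside with their regions. Their median AI was 0.541 in E6.2, with 0.552 in E6.43 and 0.552 in E15.10. AI between 0.4 and 0.6 in all libraries was found in 47.5% of flanking genes and in 66.1% of all tested genes.

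Within genes, the skew was present at most SNPs. The 56 genes list 743 SNPs, and 329 of them reached 10 counts in every library, 287 of them in coding sequence and 41 in untranslated regions. Of the 329, AI was over 0.75 in all libraries at 252 (76.6%), between 0.4 and 0.6 in all at 3, and under 0.25 in all at none, and 56 had no CAST count in any library. In 33 of the 55 genes with such SNPs, every one of them lay over 0.75 in all libraries, in 21 some did and in 1, *Skint11*, none did. Over all tested genes, those with every SNP over 0.75 were 0.247%, but the rule itself favours such genes and nothing is read from the difference. *Skint6* had no SNP with 10 counts in all libraries. Of its 136 SNPs, 109 reached 10 counts in E6.2 and 104 of these were over 0.75, and all 71 that reached it in E6.43 were.

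Where a gene was mixed, its SNPs changed along the gene. In *Olfr585*, the 13 SNPs in the first 500 bp had 1394 B6 and 818 CAST counts in E6.2 (AI 0.630), with 967 and 411 in E6.43 (0.702), and 237 and 161 in E15.10 (0.595). The 22 SNPs beyond had 2289 and 340 (0.871), 1635 and 273 (0.857), and 618 and 46 (0.931). *Psma3* had 1 coding SNP with AI of 0.553, 0.598 and 0.505 in the 3 libraries, and the next coding SNP had 0.812, 0.817 and 0.843. The coding SNP with most counts in *Psma3* had 0.926, 0.887 and 0.952.

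**Figure D2:**
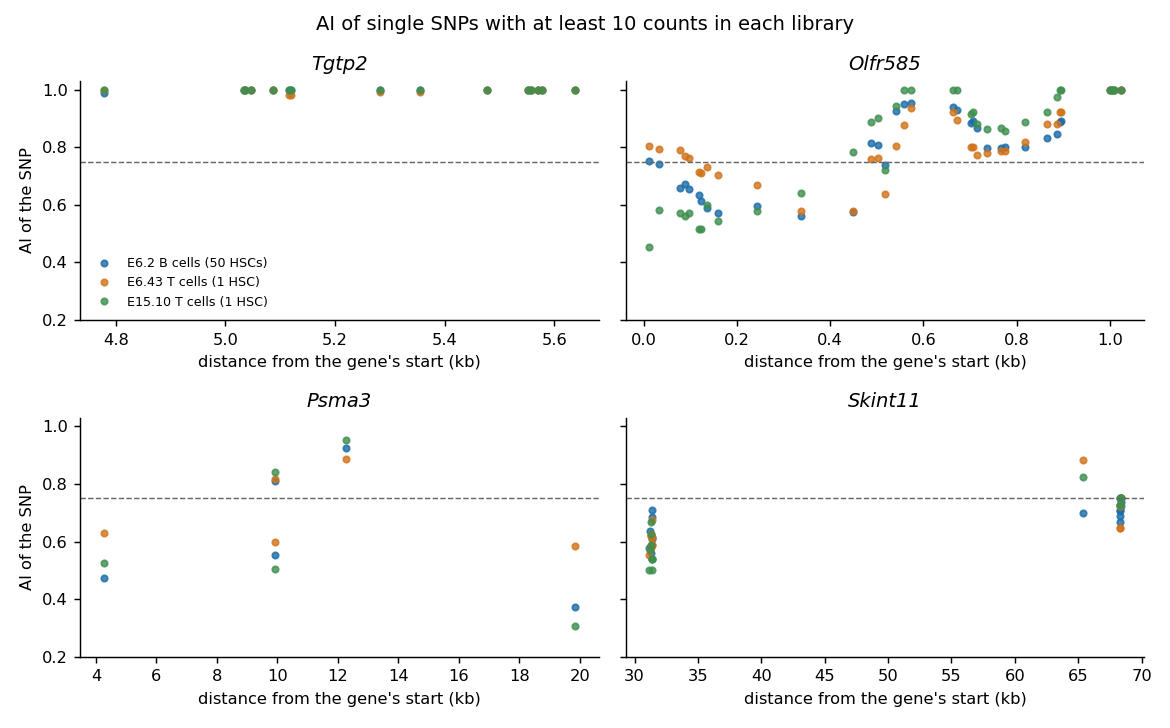
AI of single SNPs with at least 10 counts in each library (y axis) against the distance from the gene's start in kb (x axis) in *Tgtp2*, *Olfr585*, *Psma3* and *Skint11*, with the limit of 0.75 dashed. *Tgtp2* lies near 1 at all 15 SNPs. *Olfr585* is higher in summed counts at the 22 SNPs beyond 500 bp than at the 13 before, while single SNPs of the stretches overlap. *Psma3* and *Skint11* have SNPs on either side of the limit or below it.

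A high AI can stand for few CAST counts or for many B6 counts. Counts per SNP were therefore set against the median tested gene, which had 52, 35 and 28 B6 counts and 43, 29 and 24 CAST counts per SNP in the 3 libraries. The median gene of the set had 2.24, 2.17 and 1.21 times the usual B6 count per SNP in these libraries, and 0.163, 0.155 and 0.125 times the usual CAST count. As the mean of the 3 libraries, the B6 count per SNP was at least 2 times that of the median gene in 27 of 55 genes (49.1%), against 5.01% of all tested genes. Both counts enter AI, so they describe the set and are no independent evidence.

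Genes fell into a wide range on the CAST side. In 21 genes the CAST count per SNP was under 0.1 times that of the median gene, and their B6 count was 1.97 times it (median, range 0.541 to 5.91). These include *Tgtp2*, *9930111J21Rik2*, *Sprr2a2*, *Apol7e*, *Zscan4c*, *Ifnz* and *Unc93a2*. In 20 genes it was 0.1 to 0.5 times, with a median B6 count of 1.65 times. In 14 genes it was at least 0.5 times, with a median B6 count of 3.43 times, and these hold *Rps12*, *Psma3*, *Bnip3l*, *Atp5g2* and *Zmynd19*.

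*Rps12* had the most B6 counts per SNP of the set, at 16.9 times the median gene in E6.2, with 17 in E6.43 and 14.5 in E15.10. Its CAST counts were also above it, at 2.69, 2.93 and 3.04 times. *Bnip3l* had 8.46, 7.89 and 7.25 times the usual B6 count and 2.81, 2.31 and 2.17 times the usual CAST count, at 1 SNP. *Atp5g2*, which encodes subunit c of the mitochondrial ATP synthase, had 6.88, 6.29 and 6.86 times the B6 count and 1.58, 2.07 and 1.96 times the CAST count, also at 1 SNP. These genes had more counts of both alleles than the median gene and had no shortage of CAST counts. The lowest B6 counts per SNP were those of *Lipo2*, at 0.404 times the median gene beside 0.631 times its CAST count, and of *Gm9817*, with 0.541 times the usual B6 count and no CAST count at its 4 SNPs with 10 counts in each library.

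**Figure D3:**
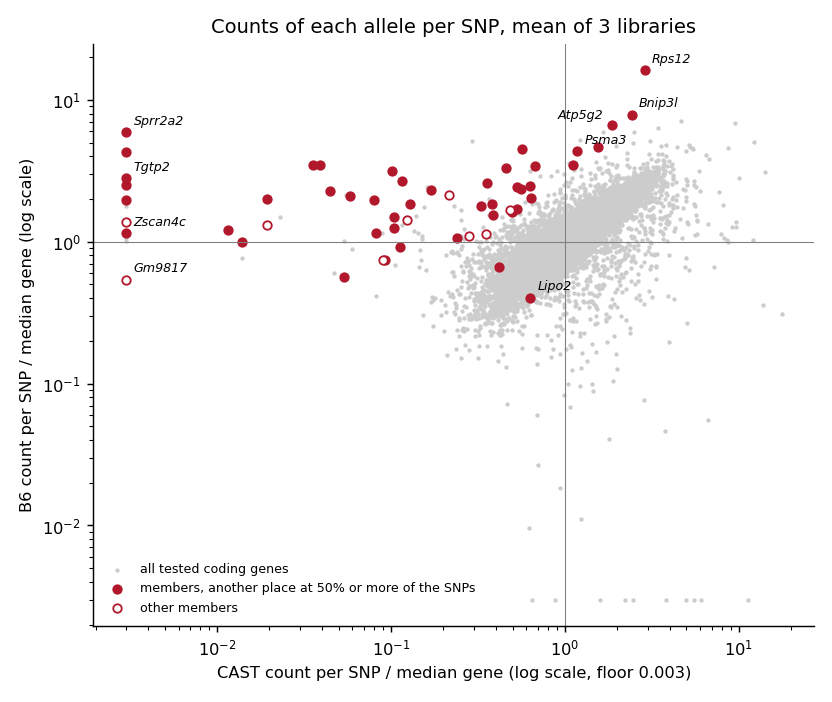
B6 count per SNP (y axis) against CAST count per SNP (x axis), each divided by the median tested gene and averaged over the 3 libraries, on log scales, for all tested coding genes (grey) and for the 55 genes of the set with SNPs of at least 10 counts (red, filled where at least 50% of the SNPs have another place in the genome over 100 bp). *Rps12*, *Bnip3l* and *Atp5g2* lie above 1 on both axes, and *Tgtp2*, *Zscan4c*, *Sprr2a2* and *Gm9817* lie at the left edge, where values under the axis are drawn.

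Most genes of the set shared sequence with another place in the genome. The reference sequence of 75 bases on each side of every SNP with at least 10 counts was aligned to the GRCm38 genome. In 37 of 55 genes (67.3%), at least 50% of these windows had another place with at least 95% identity over at least 140 bp, against 8.04% of all 16182 tested genes with windows. At 98% identity the figures were 32 genes (58.2%) and 4.25%. With a shorter match of at least 100 bp that holds the SNP, and windows along the spliced transcript added so that processed pseudogenes can match over exon boundaries, they were 46 genes (83.6%) and 10.4%. Of the coding genes with AI under 0.25, 39 of 48 (81.2%) had such places by the first measure, 37 (77.1%) at 98% identity and 41 (85.4%) by the shorter match. These windows use the reference sequence and not the counts, but the SNPs were those with enough counts. No test was made of the difference, and the part of shared sequence in the skew was not tested.

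**Figure D4:**
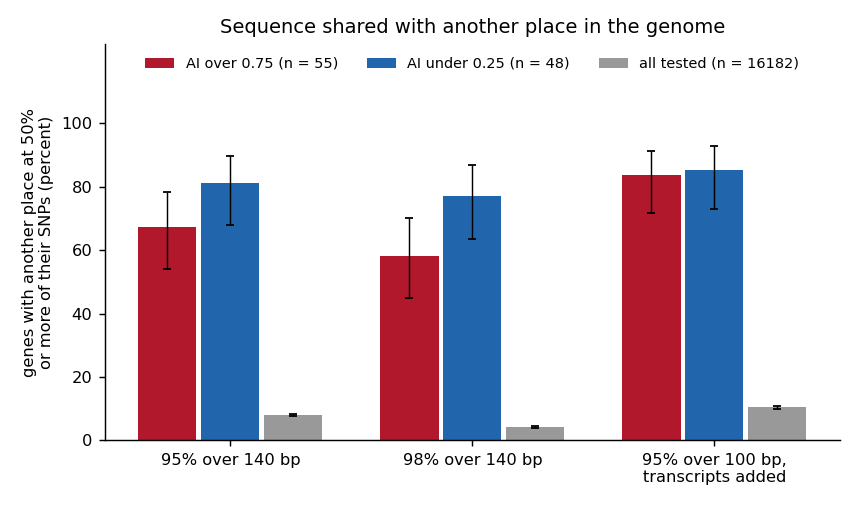
Percent of genes (y axis) in which at least 50% of the SNP windows have another place in the genome, for the genes with AI over 0.75 (red, n = 55), those with AI under 0.25 (blue, n = 48) and all tested coding genes (grey, n = 16182), by 3 definitions of a match (x axis), with 95% Wilson intervals. Red and blue bars stand between 58.2% and 85.4% and grey bars between 4.25% and 10.4%.

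Processed pseudogenes held the other places of several genes. Both SNPs of *Rps12* had other places, up to 24 for a SNP and up to 124 bp long, among them the processed pseudogenes *Rps12-ps4* and *Rps12-ps24*. The SNP of *Atp5g2* had identical stretches of 127 bp in the processed pseudogenes *Gm10175* and *Gm10231*, and 4 of 5 SNPs of *Psma3* matched the processed pseudogene *Gm13835*, over the whole window at best. All 5 SNPs of *Stard6*, a lipid transfer protein gene, matched the processed pseudogene *Gm9795*, and the SNP of *Zmynd19* matched *Gm7727* at 96.7%. *Stard6* had 62 to 63 B6 and no CAST counts in E6.2 at its pair of SNPs in an untranslated region and kept CAST counts (37 to 56) at its coding SNPs.

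At the other end, 6 genes had no SNP with another place by the shorter match: *Cd300c*, *Vcpkmt*, *Gm9817*, *Mov10l1*, *Gm8369* and *Sva*, named after their values were seen. By the same measure, 13385 of 16182 tested genes had none. Under the cut of 95%, SNPs of *Cd300c* had places at 92.7% and 93.2% identity, and a SNP of *Gm8369* at 94.7%. *Mov10l1*, an RNA helicase of the germline piRNA pathway, had 163 B6 and 41 CAST counts in E6.2, with 178 and 37 in E6.43, and 136 and 41 in E15.10. *Vcpkmt*, a lysine methyltransferase, had 356 and 27, 276 and 40, and 176 and 19. *Sva*, a seminal vesicle protein gene, had 509 and 44, 306 and 53, and 98 and 0. The reference is the B6 genome, and copies present only in CAST would not be seen in it.

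The base at the SNP in the other place was read as well, a comparison chosen after the data were seen. The best place was that of highest identity times length, to which the SNP's own base adds, and ties went to the B6 base. SNPs with more places thus had more chances of the B6 base. The number of places was not allowed for, so nothing is read from the differences below. Of the 241 SNPs with another place of at least 100 bp, the best place carried the B6 base in 180 (74.7%), against 57% of 12424 such SNPs over all tested genes and 68.9% of 148 in the genes with AI under 0.25. In *Tgtp2* (15 of 15), *9930111J21Rik2* (14 of 14), *Zscan4c* (13 of 13), *Sprr2a2* (5 of 5) and *Stard6* (5 of 5), every such SNP had the B6 base there. Counted by gene, every such SNP had the B6 base in 20 of the 49 genes with such SNPs, and none had it in 7. Over all tested genes, every such SNP had it in 745 of 2797 genes and none in 535. In the genes with AI under 0.25, every such SNP had it in 26 of 43 and none in 9. Neighbouring SNPs share places, and the CAST base at the other place was not analysed here.

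The coding genes at these other places had a wide range of AI. In 12 of the 56 genes, another gene of the set held a match in its coding sequence, as *Tgtp2* did for *9930111J21Rik2* and as *Gm5771* and *Gm10334* did for each other. For 38 of the 56, a tested coding gene outside the set did. For each, the gene outside the set that matched most SNPs was taken, then the best match, and full ties fell to identifier order. The median AI of these partners was 0.543 in E6.2, with 0.525 in E6.43 and 0.524 in E15.10. Genes of the set, over 0.75 by its rule, are left out by this choice. Of the 38 partners, 14 lay between 0.4 and 0.6 in all libraries, where 66.1% of all tested genes lay, and 3 under 0.25 in all. Matching genes not taken as partners were also under 0.25 in all for *Cd300ld2*, *Gm6803*, *Gm2056*, *Mup11* and each Vmn1r gene of the set. Matches of this kind were not counted over all tested genes. Some partners matched 1 SNP only in their coding sequence, such as *Lyz2* (1 of 4 SNPs of *Lyz1*), *Sprr2a1* (1 of 5 of *Sprr2a2*) and *Gm5797* (1 of 3 of *Gm8362*). Matches outside coding sequence were not credited to coding genes. Some lay close to the limit, such as *Slc22a30*, the partner of *Slc22a29*, with 0.774, 0.712 and 0.851, and *Sprr2a1*, the partner of *Sprr2a2*, with 0.751, 0.747 and 0.712. *Tgtp1*, the partner of *Tgtp2*, had an AI of 0.545, 0.588 and 0.522, *Adam26b*, the partner of the testis protease gene *Adam26a*, 0.524, 0.493 and 0.574, *Olfr583* 0.476, 0.528 and 0.451, and *Unc93a* 0.652, 0.693 and 0.678. The 3 partners under 0.25 were *Gsdmc2*, beside the gasdermin gene *Gsdmc4*, *Nat8f3*, beside *Nat8f7*, and *Gm5797*, beside *Gm8362*.

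*Nat8f7* and *Nat8f3*, which belong to a family of N-acetyltransferases on chromosome 6, had opposite skews. *Nat8f7* had 198 B6 and 25 CAST counts in E6.2, with 137 and 10 in E6.43, and 63 and 13 in E15.10, whereas AI of *Nat8f3* was 0.0968, 0.0667 and 0. *Cd300ld2* had no CAST count in E6.2 and E6.43 beside 279 and 229 B6 counts, and 6 beside 185 in E15.10, whereas *Cd300ld5*, in the pair printed above, had an AI of 0.117, 0.111 and 0.0960. *Cd300ld3*, taken above as the partner of *Cd300ld2*, was at 0.510, 0.481 and 0.514. *Cd300ld5* matched equally well, both at 5 of 6 SNPs and at up to 96.7% identity. In the major urinary proteins, carriers of pheromones, *Mup11* had AI of 0.947, 0.922 and 0.961 and *Mup9*, which matched at all 5 SNPs of *Mup11* with enough counts, at up to 100% identity, had no B6 count in any library.

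Genes of the set had fewer SNPs and a lower GC content than the median gene. They listed a median of 6 SNPs (range 1 to 136), against 15 over all tested genes, and a median of 3.5 against 7 with at least 10 counts in each library. A median of 1 other listed SNP lay within 75 bp of theirs, against 0.5 over all tested genes. The median GC content of the windows was 47.4% against 52.0%, and the median gene spanned 5.02 kb against 20.6 kb.

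The share of counts that the genes took was compared between libraries, as each gene's part of all autosomal counts. E6.43 and E6.2 were close, with a median ratio of 0.961 in the set and 1.01 over all tested genes. By more than 1.5-fold, 5 of 56 genes were lower in E6.43 (8.93%, against 0.593% of all tested genes) and 3 were higher (5.36%, against 0.729%). The lower ones include *Gm5771* and *Gm10334*, described below. Genes of the set had a median of 267 counts in E6.43, against 464 over all tested genes. The part of counting error in these shares was not tested. In E15.10 the ratio to E6.2 had a median of 0.640 in the set and 1.05 over all, with 30 genes lower (53.6%, against 27.2%) and 6 higher (10.7%, against 28.1%). Against E6.43, E15.10 was lower in 29 (51.8%, against 25.5%) and higher in 2 (3.57%, against 23.8%). GC content moved with this ratio across genes (Spearman's rho of 0.721 in E15.10 against E6.2 over 16182 genes that share 1 library each, as a description). In the 27 genes of the set with a GC content under 45% the median ratio of E15.10 to E6.2 was 0.547, and in the 2777 tested genes under 45% it was 0.528. In the 28 genes of the set from 45% up it was 0.835, against 1.19. With 1 library each, library, donor and cell type cannot be told apart.

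**Figure D5:**
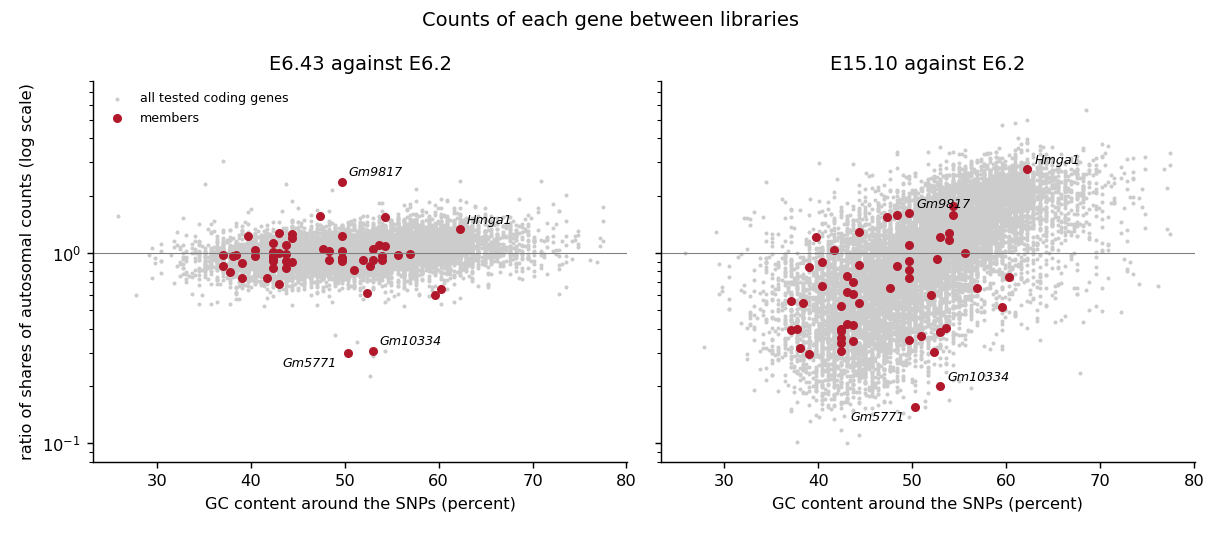
Ratio of the share of autosomal counts in E6.43 (left) and E15.10 (right) to that in E6.2 (y axis, log scale) against the GC content of the windows around the SNPs in percent (x axis), for all tested coding genes (grey) and the set (red). *Gm5771* and *Gm10334* lie far below 1 in both panels, at 0.299 and 0.306 in E6.43 and at 0.156 and 0.199 in E15.10. *Gm9817* lies above it.

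The genes with the lowest share in E6.43 relative to E6.2, *Gm5771* and *Gm10334*, are trypsinogen-like genes that lie within the T cell receptor beta locus (Trbv, Trbd, Trbj and Trbc genes, chr6:40891229-41558452), which T cells rearrange with loss of the DNA between the joined segments. *Gm5771* (chr6:41392356-41397230) had 663 counts in E6.2, with 133 in E6.43 and 58 in E15.10, while *Gm10334* (chr6:41442216-41446145) had 580, 119 and 65. Of the 6 other tested coding genes in the locus, 5, all trypsin genes, had ratios of 0.227 to 0.369 in E6.43 to E6.2 and of 0.166 to 0.40 in E15.10 to E6.2, and *Gm2663* had 0.873 and 1.13. The 5 tested genes near the locus had 0.777 to 1.08 in E6.43 and 0.376 to 1.01 in E15.10, with *Moxd2* lowest in E15.10 and *Ephb6* highest in both. The part of rearrangement in these ratios was not tested. AI of *Gm5771* was 0.817, 0.872 and 0.862, and that of *Gm10334* was 0.795, 0.958 and 0.769. In the 5 other trypsin genes, AI was 0.572, 0.755 and 0.751 in *Try4*, and 0.609, 0.711 and 0.799 in *Try5*. It was 0.691, 0.819 and 0.830 in *Prss3*, 0.674, 0.747 and 0.704 in *Prss1*, and 0.679, 0.744 and 0.651 in *Try10*. Of the best covered genes, *Olfr585*, *Skint6*, *Gm4841* and *Olfr487* had ratios of 0.390, 0.134, 0.358 and 0.336 in E15.10 to E6.2, and of 1.01, 0.745, 0.931 and 1.13 in E6.43 to E6.2. *Hmga1*, which encodes an architectural chromatin protein, was higher in E15.10 (2.75) and *Gm9817* was higher in E6.43 (2.37).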

How the data were processed

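DNA of 3 exome libraries was analysed, grouped by the sample labels. Per the labels and the study's methods, the authors aligned the reads with STAR 2.5.4a to B6 and CAST genomes (GRCm38), counted alleles with the ASEReadCounter* pipeline, and deposited the counts of each allele per SNP and per gene. These settings are stated for RNA-seq, and duplicates are not described. The deposited gene counts equal the sums of their SNP counts, and counts of neighbouring SNPs share reads. Positions given as text beside the counts (another kind of value) were deposited in the same files. The authors' AI, intervals, p-values and calls in a series-wide table were not used, and its counts served as an alternative source. Columns of no sample used numbered 0. AI, Wilson intervals at 95% confidence and limits for a count of 0 (3 counts) were computed in Python 3.11.15. Genes were named from GENCODE mouse release M21. Windows of 75 bases on each side of a SNP were aligned with minimap2 2.31-r1302 (k-mer 15, minimizer window 5, up to 100 further places). The rule and the search were tested on simulated data. Members and lists were chosen with earlier results of these data known. Named genes were the 12 with most counts, those at the limit of 0.75, those with no CAST count, the best covered of each family list with at least 2 members, the ends of groups of at least 3 members, and up to 4 with most counts among those whose share differed over 2-fold. Others were named after their values were seen. No test between libraries was made, since each group has 1 library. Alternatives varied the count minimum, the AI limit, the libraries, the SNPs and the match.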

Additional observations from a re-analysis of the deposited data

How the results depend on the processing

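The number of genes in the set, 56, was 44 with at least 90 counts, 77 by the median AI of SNPs, 45 with SNPs at least 300 bp apart, 67 with no region left out and 44 from the series-wide table. It moved to 100 with at least 10 counts, to 20 with AI over 0.9 and to 91 with AI over 0.7. Leaving out each library gave 66 to 101 genes, the highest without E15.10, and the rule only lets genes be added there. With AI over 0.9, genes with no CAST count made up 15.0% in place of 5.36%, genes whose SNPs all lay over 0.75 made up 84.2% in place of 60%, and genes with another place in the genome 84.2% in place of 67.3%. With the match of at least 100 bp, chosen after the data were seen, the last was 83.6%. Genes in groups within 1 Mb made up 18.2% with at least 90 counts in place of 30.4%. Genes whose share of counts differed by more than 2-fold made up 5.36% between E6.43 and E6.2, 37.5% between E15.10 and E6.2 and 32.1% between E15.10 and E6.43, in place of 14.3%, 64.3% and 55.4% at 1.5-fold. Leaving out each library moved the share with no CAST count to between 4.29% and 4.95%, with all SNPs over 0.75 to between 49.3% and 52.3%, in groups to between 31.8% and 38.6%, with another place to between 60.9% and 68.1%, the median B6 count per SNP to between 1.55 and 1.83 times, and SNPs within 75 bp stayed at 1. Low depth limits E15.10 most, where *Skint6* had no SNP with 10 counts. No paired analysis was possible because each group has 1 library and no test was made.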
